A study of Mus musculus with 7 samples.

Results

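Transcripts of the hypoxia response and of glycolysis were examined in the established mouse myoblast line C2C12, which comes from skeletal muscle, after knockdown of GLP (gene Ehmt1) or of G9a (gene Ehmt2), a pair of related enzymes that methylate lysine 9 of histone H3. The set holds 34 genes listed by symbol. Each was read from the probe set with the highest mean signal among those that the array annotation gives to a single gene, and 29 of the 34 were measured in this way, out of 22180 genes in all. Aldoa, Bnip3l and Ankrd37 lie on probe sets shared with other genes, and Gpi1 and Eno1 were matched to no probe set by symbol, so these 5 have no value here. The groups were cells that received an siRNA against GLP (siGLP, 2 arrays), an siRNA against G9a (siG9a, 3 arrays) or a control siRNA (Control, 2 arrays). All groups were grown in medium with 15% serum, and 0.2 µmol of siRNA was used for each 100 mm dish. The sources used here do not give the oxygen tension or the time after transfection. The labels do not say whether arrays of a group came from separate dishes. The p-values therefore speak to the spread among these arrays, which could be technical.

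Cells sense oxygen through prolyl hydroxylases (the Egln enzymes), which mark the alpha subunits of hypoxia-inducible factor (HIF) for destruction while oxygen is present. When oxygen falls, HIF-1α pairs with ARNT and binds short DNA elements with a core such as ACGTG. The pair raises transcription of glucose transporters, glycolytic enzymes, mitophagy receptors and angiogenic factors. Myoblasts and muscle also run glycolysis under full oxygen, and several of these genes respond to other inputs such as insulin, MYC and nutrient supply. In human cells G9a and GLP have been reported to methylate the HIF-1α protein, a step that mRNA arrays do not measure.

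The knockdowns were checked on the targeted transcripts. Ehmt1 had log2 signals of 5.73 and 6.13 in siGLP, against 6.71 and 6.73 in Control, a difference of -0.79 (SE 0.14; limma adjusted p = 0.197) that did not pass over all genes. Ehmt2 had 6.31, 6.14 and 5.99 in siG9a, against 7.56 and 7.46 in Control, and fell by 1.37 (SE 0.10; limma adjusted p = 0.0308). All 7 myoblast markers (Myod1, Myf5, Des, Cdh15, Vim, Itga7 and Pax7) had means above the median gene, from 5.26 to 12.6. Myod1 stood at -0.0025 in siGLP minus Control and at -0.68 in siG9a minus Control (limma adjusted p in siG9a = 0.1455). Cdh15 stood at -0.51 in both (limma adjusted p = 0.292 and 0.181), and the other myoblast markers differed less. Of 4 differentiated myotube markers, 2 (Myog and Acta1) were also above the median gene. Of 12 measured markers of leukocytes, endothelium, epithelium and fat, Cd68 was the only 1 above the median gene. Cd68, a lysosomal protein of macrophages, stood at 0.54 in siGLP minus Control and 0.62 in siG9a minus Control (limma adjusted p = 0.262 and 0.133), while the pan-leukocyte marker Ptprc averaged 2.82, and the part of such cells in the results was not tested. Array pairs correlated across genes (not independent replicates) at r of 0.996 to 0.9969 inside a group and 0.9945 to 0.9965 between groups, and these ranges overlap.

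Most of the 29 genes are well expressed in these cells. Their median stood at percentile 86.7 of all measured genes by mean level, and 28 lay above the median gene, whose mean log2 signal was 4.98. Adm, which encodes the vasodilator adrenomedullin, was the 1 exception. Gapdh, Pkm, Pgk1, Tpi1 and Slc2a1 were each above percentile 99 of all genes. Ldha, the muscle form of lactate dehydrogenase, had means of only 5.3 to 5.4 on its single probe set (percentile 54.2). Ldha is usually abundant in cultured myoblasts, and whether this probe set reports the bulk of its transcript was not tested. Signals of different probe sets are not on a common scale per transcript, so these percentiles place a probe set among all others and do not rank transcripts. Egln3 and Pfkfb3 (2 members) carried an identical value on 3 or more arrays.

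Whether these transcripts depend on G9a was asked by setting siG9a against Control. The largest differences were in mitochondrial and glycolytic genes: the mitophagy receptor gene Bnip3 stood 1.45-fold above Control, the pyruvate dehydrogenase kinase gene Pdk1 1.32-fold, the mitochondrial inner membrane gene Higd1a 1.30-fold and the platelet isoform of phosphofructokinase, Pfkp, 1.29-fold. None of the 29 genes passed a Benjamini-Hochberg adjusted p under 0.05 over all 22180 genes tested with limma, against 0.0271% of all genes, and the smallest adjusted p was 0.108. At an unadjusted p under 0.05, 4 were higher (13.8%) and 0 were lower. The background shares were 5.95% higher and 4.57% lower among all genes, and 8.83% and 6.55% among genes at or above the median level. Of the 29, 20 lay above Control and 9 below, with a median log2 difference of 0.068, beside 0.005 over all genes. The members were chosen with earlier results of these data known, so an excess over the background is no test of the list.

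Bnip3 encodes an outer membrane protein that recruits the autophagy machinery to mitochondria and is one of the most strongly HIF-induced genes in many cell types. Its log2 signals were 8.32 and 8.29 in siGLP, 8.80, 8.72 and 8.82 in siG9a, and 8.14 and 8.35 in Control. The siG9a arrays all lay above the other 4, and siGLP lay within the range of Control. The difference was 0.53 in siG9a minus Control (SE 0.080, 95% interval 0.34 to 0.73; limma adjusted p = 0.108; rank 63 by p over all genes). In siGLP minus Control it was 0.06 (SE 0.088). Leaving out any 1 array kept the siG9a difference between 0.43 and 0.64.

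Higd1a, a small protein of the mitochondrial inner membrane that interacts with the respiratory chain, gave the next smallest p. Its signals were 7.45 and 7.18 in siGLP, 7.76, 7.59 and 7.66 in siG9a, and 7.32 and 7.27 in Control. Again siG9a lay above both other groups on every array, and the siGLP arrays lay on either side of Control. The log2 difference was 0.37 in siG9a minus Control (SE 0.099, 95% interval 0.14 to 0.61; limma adjusted p = 0.254) and 0.02 in siGLP minus Control (SE 0.11).

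**Figure D1:**
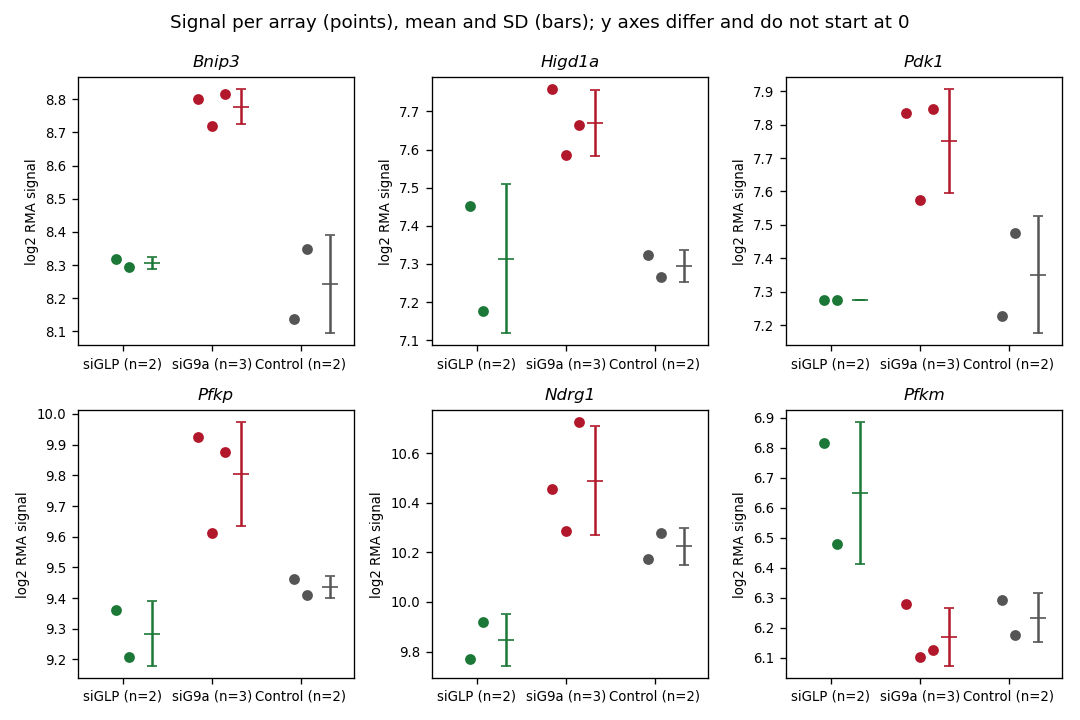
Log2 RMA signal on each array (points) with the group mean and SD (bars) for 6 genes, in siGLP, siG9a and Control. Bnip3, Higd1a, Pdk1 and Pfkp have all siG9a arrays above the other 2 groups, Ndrg1 has siGLP below and siG9a above Control, and Pfkm has both siGLP arrays above the rest.

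The letters ACGTG are a core of the hypoxia response element, and other forms of the element were not searched. Promoter windows are printed for the 4 genes with the smallest p in siG9a minus Control among those that hold ACGTG, to show its place. They are RefSeq sequences of the GRCm38.p6 assembly, 5′ to 3′ on the gene's strand, from 250 bases before to 50 bases after the transcript start, with ACGTG or its reverse complement CACGT in capitals.
Bnip3, chr7:138909457-138909756, minus strand: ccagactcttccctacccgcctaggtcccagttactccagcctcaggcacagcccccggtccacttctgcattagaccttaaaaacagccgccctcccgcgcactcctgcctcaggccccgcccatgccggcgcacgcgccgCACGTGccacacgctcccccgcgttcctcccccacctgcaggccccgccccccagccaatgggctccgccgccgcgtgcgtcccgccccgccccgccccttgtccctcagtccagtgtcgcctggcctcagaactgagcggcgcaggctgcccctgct
Higd1a, chr9:121857747-121858046, minus strand: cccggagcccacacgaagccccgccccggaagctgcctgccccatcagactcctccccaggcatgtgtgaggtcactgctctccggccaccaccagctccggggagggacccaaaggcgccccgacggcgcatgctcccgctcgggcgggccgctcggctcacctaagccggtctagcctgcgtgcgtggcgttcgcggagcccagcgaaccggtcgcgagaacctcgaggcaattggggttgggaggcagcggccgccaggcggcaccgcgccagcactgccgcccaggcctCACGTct
Slc16a3, chr11:120948817-120949116, plus strand: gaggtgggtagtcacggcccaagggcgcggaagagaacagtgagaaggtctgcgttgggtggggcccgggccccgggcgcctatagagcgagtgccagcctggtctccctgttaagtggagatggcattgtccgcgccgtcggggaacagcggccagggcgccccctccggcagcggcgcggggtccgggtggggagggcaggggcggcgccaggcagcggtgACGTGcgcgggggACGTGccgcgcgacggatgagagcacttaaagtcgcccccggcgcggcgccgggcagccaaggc
Slc2a1, chr4:119108495-119108794, plus strand: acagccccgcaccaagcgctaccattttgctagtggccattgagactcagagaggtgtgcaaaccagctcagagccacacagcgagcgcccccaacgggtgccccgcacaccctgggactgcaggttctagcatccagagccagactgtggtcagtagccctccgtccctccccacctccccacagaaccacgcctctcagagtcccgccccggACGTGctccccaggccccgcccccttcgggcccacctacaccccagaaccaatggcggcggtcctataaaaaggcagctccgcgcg
In Bnip3 the pair of matches overlap as the palindrome CACGTG, which is also the E-box read by MYC and USF factors, and begins 108 bases before the start. Slc16a3 holds its matches 27 and 14 bases before the start and Slc2a1 holds 1 at 36 bases before it, while that of Higd1a lies 43 bases after the start, inside the transcript. Windows were found for 28 of the 29 measured genes, all but Ndrg1, and 22 of the 28 (78.6%) held the core on either strand in at least 1 of their windows. Among all 16990 measured genes with a window, 23.8% held it, and by window the shares were 64.1% of 39 and 21.4% of 20611. The palindrome CACGTG was present in 17.9% of the 28 genes and in 9.19% of the 16990. Many of the listed genes are known HIF targets, so the list is not independent of this core. Pdk1 and Pfkp, the other genes with an unadjusted p under 0.05 in siG9a, had no match in these windows, nor had Pfkl, Tpi1, Pfkfb4 and Adm. A match describes letters in a window and does not show binding.

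**Figure D2:**
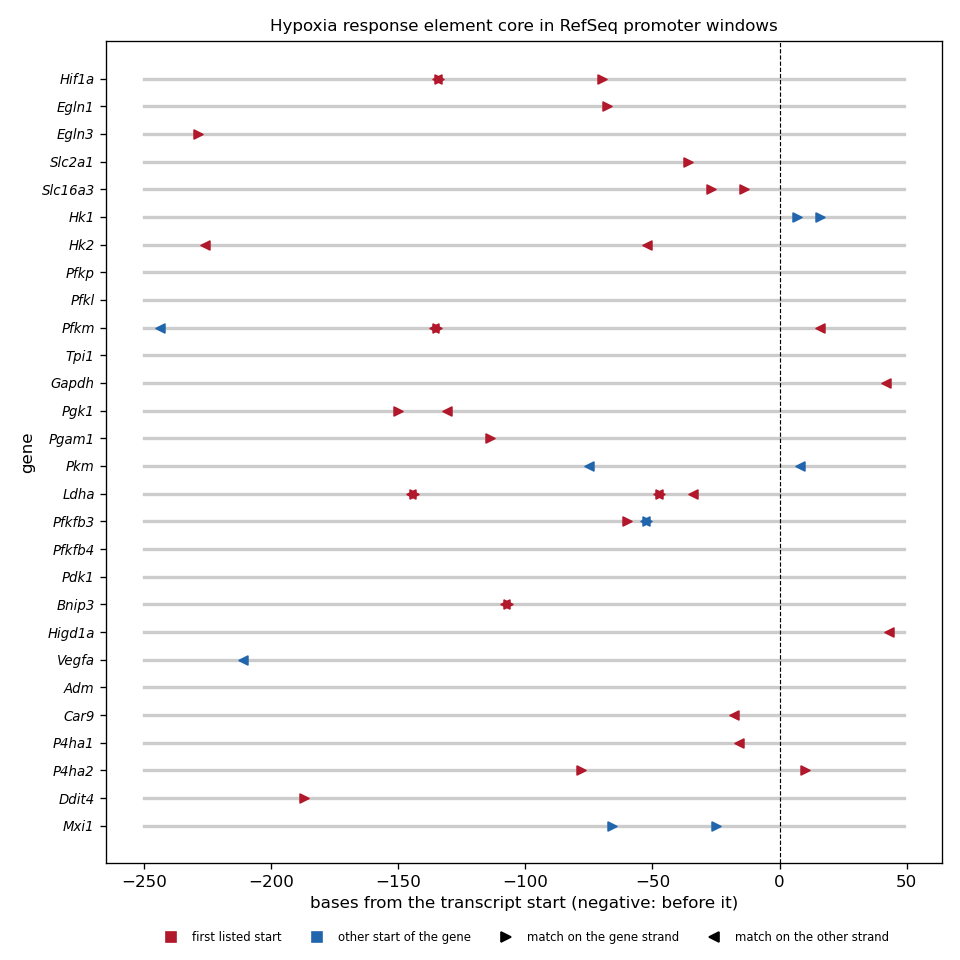
Position of each match of the ACGTG core in the promoter windows of the 28 genes with a window, in bases from the transcript start (dashed line), with triangles pointing right for the gene's strand and left for the other, red for the start listed earliest in the table and blue for other starts. Overlapping triangles in Hif1a, Pfkm, Ldha, Pfkfb3 and Bnip3 are the CACGTG palindrome.

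Among the oxygen-sensing members, Hif1a mRNA differed little. Its log2 signals were 9.41 and 9.50 in siGLP, 9.60, 9.51 and 9.60 in siG9a, and 9.50 and 9.45 in Control. The siG9a arrays lay just above Control, by 0.09 on average (SE 0.066; limma adjusted p = 0.666), and the siGLP difference was -0.02 (SE 0.072). Egln1, the main prolyl hydroxylase, stood at -0.12 in siG9a and -0.10 in siGLP against Control, with all arrays of both knockdowns below both Control arrays (limma adjusted p = 0.59 and 0.77). Egln3, a prolyl hydroxylase that is itself induced by HIF in many cells, stood at 0.11 in siGLP and 0.02 in siG9a. HIF is regulated mainly at the protein level, which was not measured.

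Both membrane transporters of the set leaned upward in siG9a. Slc2a1, the ubiquitous glucose transporter GLUT1, had signals of 11.20 and 11.39 in siGLP, 11.41, 11.57 and 11.61 in siG9a, and 11.21 and 11.40 in Control. The lowest siG9a array exceeded the higher Control array by a small margin, and the siGLP values were nearly equal to those of Control. The difference was 0.23 in siG9a (SE 0.10; limma adjusted p = 0.495) and -0.006 in siGLP (SE 0.11). Without Control 1 the siG9a difference was 0.13. The other probe set of Slc2a1, dimmer on average, gave -0.16 in siGLP and 0.20 in siG9a. Slc16a3, which exports lactate, had 7.18 and 7.30 in siGLP, 7.22, 7.46 and 7.29 in siG9a, and 6.94 and 7.20 in Control. The low array was Control 1, and the siG9a difference of 0.25 (SE 0.11; limma adjusted p = 0.491) was 0.12 without it. In siGLP Slc16a3 stood at 0.17 (SE 0.12) and its arrays overlapped Control.

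The 11 measured enzymes of glycolysis did not move as a block. In siG9a, 9 lay above Control and 2 below, with a median of 0.063, and in siGLP 5 lay above and 6 below, with a median of -0.042. The widest differences fell on the phosphofructokinase step, at which glycolysis is committed. Pfkp had signals of 9.36 and 9.21 in siGLP, 9.92, 9.61 and 9.88 in siG9a, and 9.46 and 9.41 in Control. Every siG9a array was above Control and every siGLP array below it, with differences of 0.37 in siG9a (SE 0.11, 95% interval 0.11 to 0.62; limma adjusted p = 0.304) and -0.15 in siGLP (SE 0.12; limma adjusted p = 0.79).

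Pfkm, the muscle isoform, showed another pattern. Its signals were 6.82 and 6.48 in siGLP, 6.28, 6.10 and 6.12 in siG9a, and 6.29 and 6.18 in Control. Both siGLP arrays exceeded all 5 others, and siG9a overlapped Control. The difference was 0.41 in siGLP minus Control (SE 0.12, 95% interval 0.12 to 0.71; limma adjusted p = 0.409), the smallest p of the set in that comparison, and it ranged from 0.25 (without siGLP 1) to 0.58 when settings or arrays were changed. In siG9a it was -0.07 (SE 0.11). Pfkl, the liver isoform, had 8.55 and 8.65 in siGLP, 8.71, 8.66 and 8.68 in siG9a, and 8.65 and 8.77 in Control, and its differences were -0.11 in siGLP and -0.03 in siG9a. The Pfkl arrays of each knockdown overlapped those of Control.

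The hexokinases, which trap glucose in the cell, lay on opposite sides of Control in the knockdowns. Hk2, the insulin- and HIF-responsive form, had signals of 8.33 and 8.23 in siGLP, 8.51, 8.43 and 8.60 in siG9a, and 8.38 and 8.44 in Control. The siGLP arrays were the lowest of all, and siG9a overlapped Control. Its differences from Control were -0.14 in siGLP (SE 0.083) and 0.10 in siG9a (SE 0.076), with limma adjusted p of 0.735 and 0.691. Hk1 stood at -0.09 and 0.14 in the same order.

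The lower part of the pathway, where triose phosphates are turned into pyruvate and lactate, differed by at most 0.13 on the log2 scale in either knockdown. Tpi1 stood at -0.04 in siGLP and 0.06 in siG9a, Gapdh at 0.05 and 0.03, Pgk1 at 0.03 and 0.08, and Pgam1 at -0.05 and 0.03. Probe sets that were not used gave other values, as Pgam1 stood at 0.17 in siG9a on its other probe set, and Gapdh at -0.22 in siGLP and -0.13 in siG9a on the dimmest of its 3. Pkm, pyruvate kinase, had signals of 12.25 and 12.20 in siGLP, 12.11, 12.11 and 12.09 in siG9a, and 12.10 and 12.08 in Control. It was highest on both siGLP arrays, at 0.13 in siGLP minus Control (SE 0.063; limma adjusted p = 0.644) and 0.01 in siG9a. Ldha had 5.33 and 5.29 in siGLP, 5.43, 5.33 and 5.37 in siG9a, and 5.32 and 5.25 in Control, with differences of 0.03 and 0.09. The lowest siG9a array and the higher Control array were almost equal.

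Regulators of glycolytic flux were split. Pdk1 encodes a kinase that shuts pyruvate out of the mitochondrion's citric acid cycle by inactivating pyruvate dehydrogenase. It had signals of 7.28 and 7.28 in siGLP, 7.83, 7.57 and 7.85 in siG9a, and 7.23 and 7.47 in Control. All siG9a arrays were above the rest, by 0.40 over Control (SE 0.11, 95% interval 0.13 to 0.67; limma adjusted p = 0.287), while siGLP stood at -0.08 (SE 0.12). The other probe set of Pdk1, dimmer on average, gave 0.53 in siG9a and 0.13 in siGLP. Pfkfb3 and Pfkfb4, enzymes that make and break the phosphofructokinase activator fructose 2,6-bisphosphate, stood at 0.01 and 0.10 in siGLP and at -0.01 and -0.13 in siG9a, with overlapping arrays.

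Secreted, surface and collagen-modifying products of the hypoxia response showed no differences beyond the spread of arrays. Vegfa, the vascular growth factor, had signals of 9.73 and 9.62 in siGLP, 9.76, 9.67 and 9.64 in siG9a, and 9.87 and 9.70 in Control. All groups overlapped, with differences of -0.11 in siGLP (95% interval -0.32 to 0.10) and -0.09 in siG9a (95% interval -0.29 to 0.10). Car9, a carbonic anhydrase of the cell surface that is among the most HIF-dependent genes, stood at -0.10 and -0.07 near the middle of all genes in level (percentile 51.3), and its other probe set gave 0.16 and 0.23. The collagen prolyl hydroxylase genes P4ha1 and P4ha2 stood at -0.07 each in siGLP and at -0.07 and 0.07 in siG9a. Adm stood at 0.04 and 0.22, with Control arrays at 4.36 and 3.67 that spanned all siGLP and most siG9a values.

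Among growth and signalling targets, Ndrg1 was the 1 member of the whole set with an unadjusted p under 0.05 for a lower value in siGLP minus Control. Ndrg1 is induced by hypoxia and by withdrawal of N-Myc repression, and slows growth in many cells. Its signals were 9.77 and 9.92 in siGLP, 10.46, 10.29 and 10.72 in siG9a, and 10.17 and 10.28 in Control. No group overlapped another, siGLP being lowest and siG9a highest, although siG9a 2 exceeded Control 2 by very little. The differences were -0.38 in siGLP minus Control (SE 0.14, 95% interval -0.72 to -0.04; limma adjusted p = 0.521) and 0.26 in siG9a minus Control (SE 0.13; limma adjusted p = 0.54), and its other probe set gave -0.30 and 0.34. Without siG9a 3 the siG9a difference of Ndrg1 was 0.15. With the replicate number as a block it was the same by construction, since only siG9a has a replicate 3, so this is not a separate check. Ddit4, an inhibitor of mTORC1 signalling, stood at 0.22 in siGLP and -0.01 in siG9a. The MYC antagonist gene Mxi1 stood at -0.004 and 0.07 in the same order, and its other, dimmer probe set at -0.21 and 0.05.

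Dependence on GLP was asked by setting siGLP against Control, which gave few differences in the set. Pfkm was higher and Ndrg1 lower at an unadjusted p under 0.05, which is 3.45% of the 29 genes in each direction, against 4.51% and 4.13% of all genes and 5.40% and 5.63% of genes at or above the median level. None passed over all genes in limma (background 0.00451%), and the smallest adjusted p was 0.409. The median difference was -0.006 (0.002 over all genes), with 13 genes above Control and 16 below. Arrays of siGLP and Control did not overlap in 3 higher and 5 lower members, 10.3% and 17.2%. The shares were 17.4% and 16.9% of all genes, and 19.9% and 21.0% of genes at or above the median level. Ehmt1 stood at 58.0% of Control in siGLP (2 arrays), and Ehmt2 at 38.8% in siG9a (3 arrays). With a smaller fall of the target and fewer arrays, few differences in siGLP do not show independence of GLP.

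**Figure D3:**
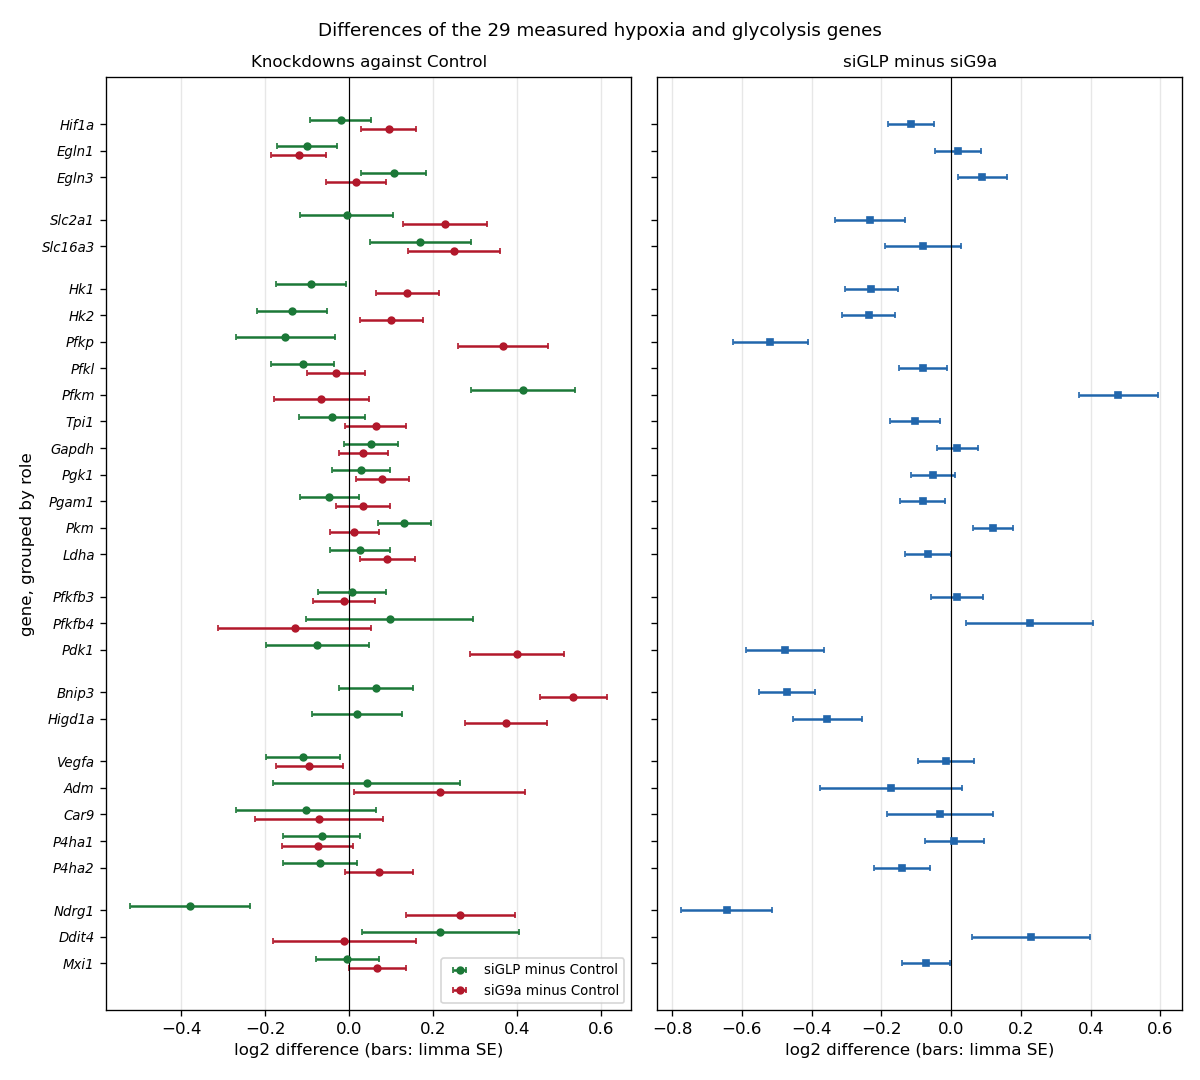
Log2 differences of the 29 measured genes, grouped by role, with limma standard errors as bars. The left panel gives siGLP (green) and siG9a (red) minus Control, where Bnip3, Pdk1, Higd1a and Pfkp lie furthest right in siG9a, and the right panel gives siGLP minus siG9a, where Ndrg1 (-0.64) and Pfkp (-0.52) lie furthest left and Pfkm (0.48) furthest right.

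In siG9a minus Control, by contrast with siGLP, many members had every siG9a array above both Control arrays, often by very little. Arrays did not overlap in 13 of the 29 members with siG9a higher (44.8%) and in 1 with siG9a lower (Egln1, 3.45%). The background was 14.0% higher and 11.7% lower among all genes, and 19.4% and 15.9% among genes at or above the median level. As the list was chosen with earlier results of these data known, these shares describe it and do not test it. The 13 were Bnip3, Higd1a, Pdk1, Pfkp, Slc16a3, Slc2a1, Ndrg1, Hk1, Hif1a, Ldha, Pgk1, Mxi1 and Tpi1. The lowest siG9a array exceeded the higher Control array by very little in Slc16a3, Slc2a1, Ndrg1, Hif1a, Ldha, Pgk1, Mxi1 and Tpi1. In Ldha these arrays were at 5.3273 and 5.3245, and in Mxi1 at 10.3572 and 10.3399. The gap was wider in Bnip3, Higd1a, Pdk1, Pfkp and Hk1. By array, the median member stood 0.10, 0.042 and 0.081 above its Control mean in siG9a 1, 2 and 3, and at -0.011 and -0.003 in siGLP 1 and 2. The median of all genes was at most 0.005 on any array. With 3 arrays against 2, an exact permutation test of a single gene cannot give a two-sided p below 0.10, and with 2 against 2 not below 0.333, so none was run.

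Both knockdowns were also compared directly, since a difference from Control in one and not in the other does not show that they differ. This comparison uses the same siGLP and siG9a arrays as the comparisons with Control and is not independent of them. In siGLP minus siG9a, 7 members were lower and 1 higher at an unadjusted p under 0.05, or 24.1% and 3.45% of the 29. The background was 6.57% lower and 5.87% higher among all genes, and 10.2% and 7.94% among genes at or above the median level. The 7 were Bnip3, Ndrg1, Pfkp, Pdk1, Higd1a, Hk2 and Hk1, and the higher one was Pfkm. None passed over all genes in limma, against 0.234% of all genes (52 genes), and the smallest adjusted p was 0.0823. The median difference was -0.080 (-0.004 over all genes), with 20 members below 0, and arrays did not overlap in 11 members with siGLP lower (37.9%) and 2 with siGLP higher (6.90%). Among all genes these shares were 14.2% and 12.1%, and among genes at or above the median level 20.4% and 15.5%. The member shares again describe a list chosen with earlier results known and do not test it.

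The direct difference was -0.47 in Bnip3 (SE 0.080, 95% interval -0.66 to -0.28; limma adjusted p = 0.0823), or 1.39-fold lower in siGLP than in siG9a. Ndrg1 had the widest gap of the set, at -0.64 (SE 0.13, 95% interval -0.95 to -0.34; limma adjusted p = 0.115), and its other probe set gave the same value to 2 decimals. Pfkp stood at -0.52 (SE 0.11; limma adjusted p = 0.122) and Pdk1 at -0.48 (SE 0.11; limma adjusted p = 0.161), with -0.39 on the other Pdk1 probe set. Pfkm stood at 0.48 (SE 0.11; limma adjusted p = 0.164), opposite to Pfkp. Higd1a stood at -0.36 (SE 0.099), Hk2 at -0.24 (SE 0.076) and Hk1 at -0.23 (SE 0.076), with limma adjusted p of 0.221 to 0.293. The Higd1a value was -0.22 without siGLP 2. Slc2a1 was at -0.23 (SE 0.10; limma adjusted p = 0.413). For Vegfa the interval was -0.21 to 0.18, and for Hif1a it was -0.27 to 0.04.

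Some members passed under other settings, and the cause was not tested. Without genes below the median level, or with trended and robust variance moderation, Bnip3 passed in siG9a minus Control (limma adjusted p = 0.0346 and 0.0338), and Bnip3, Ndrg1 and Pfkp passed in siGLP minus siG9a (limma adjusted p of 0.028 to 0.0499). In those settings 148 and 100 genes passed in all in siG9a minus Control, and 350 and 304 in siGLP minus siG9a.

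Other genes of the same pathways were read from 4 lists, of which 79 of 91 symbols were measured, and none passed over all genes in limma in any comparison. These lists were also chosen with earlier results of these data known, so their counts are descriptive. The oxygen-sensing machinery besides the members (13 genes measured) had 2 genes lower in siGLP minus Control at an unadjusted p under 0.05, a level reached by 4.13% of all genes. These were Arnt, the partner of HIF-1α, at -0.26 (SE 0.068; limma adjusted p = 0.351), and Siah2, a ubiquitin ligase that degrades prolyl hydroxylases, at -0.19 (SE 0.067; limma adjusted p = 0.492). In siG9a minus Control 0 of the 13 reached that level, and in siGLP minus siG9a 4 were lower and 0 higher (6.57% and 5.87% of all genes), with a median of -0.11 (-0.004 over all genes). Hif1an, the asparaginyl hydroxylase that blocks HIF's coactivators, had signals of 5.96 and 6.28 in siGLP, 6.43, 6.64 and 6.87 in siG9a, and 6.08 and 6.43 in Control. It stood at 0.39 in siG9a minus Control (SE 0.17; limma adjusted p = 0.49) with overlapping arrays, and at -0.53 in siGLP minus siG9a (SE 0.17; limma adjusted p = 0.278).

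Among 26 other HIF targets, 6 were higher and 1 lower in siG9a minus Control at an unadjusted p under 0.05, and 1 was higher and 1 lower in siGLP minus Control. The shares of all genes were 5.95% higher and 4.57% lower in siG9a, and 4.51% and 4.13% in siGLP. Hmox1, heme oxygenase, had signals of 11.22 and 11.18 in siGLP, 11.06, 11.06 and 11.25 in siG9a, and 10.23 and 10.54 in Control. Both knockdowns lay above Control on every array, at 0.82 in siGLP (SE 0.12; limma adjusted p = 0.178) and 0.74 in siG9a (SE 0.11; limma adjusted p = 0.108), which is a larger difference than any of the 29 members showed against Control. Hmox1 is known to respond also to oxidative stress and heme through NRF2 and BACH1. The comparisons with Control share the same 2 Control arrays.

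Plod2, a lysyl hydroxylase of collagen, stood at 0.56 in siG9a (SE 0.13; limma adjusted p = 0.212) and 0.27 in siGLP (SE 0.14; limma adjusted p = 0.689). Ccng2, an atypical cyclin, stood at 0.51 in siG9a (SE 0.12; limma adjusted p = 0.204), and -0.44 in siGLP minus siG9a. Narf stood at 0.40 in siG9a and -0.18 in siGLP against Control, and its direct difference of -0.58 (SE 0.076; limma adjusted p = 0.0531) had the smallest p of this list. Bhlhe40, a repressor of the circadian and hypoxia programmes, stood at -0.42 in siGLP minus siG9a (SE 0.098; limma adjusted p = 0.158). In that comparison 5 of the 26 were lower and 0 higher at an unadjusted p under 0.05, against 6.57% and 5.87% of all genes, with a median of -0.12 (-0.004 over all genes). Cxcr4, a chemokine receptor, stood at -0.43 in siGLP minus Control (SE 0.12; limma adjusted p = 0.395).

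**Figure D4:**
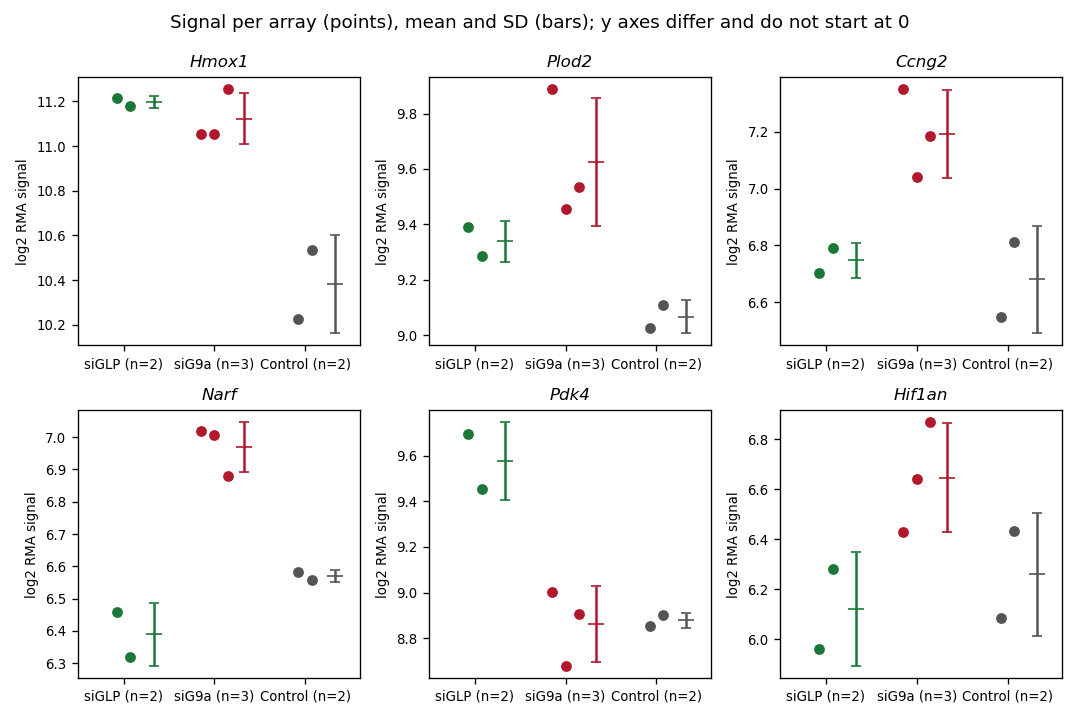
Log2 RMA signal on each array (points) with the group mean and SD (bars) for 6 further genes of the pathways, in siGLP, siG9a and Control. Hmox1 and Plod2 lie above Control in both knockdowns, Ccng2 and Narf are highest in siG9a, and Pdk4 is highest in siGLP. For Hif1an only the lowest siG9a array (6.4295) lies within the Control range, just below the higher Control array (6.4343).

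Of 27 other glycolysis and pyruvate genes, 2 were higher and 0 lower in siG9a minus Control at an unadjusted p under 0.05, and 3 were higher and 1 lower in siGLP minus Control. Among all genes 5.95% and 4.57% did so in siG9a, and 4.51% and 4.13% in siGLP. Pdk4, the pyruvate dehydrogenase kinase that is induced by fasting and fatty acids, had signals of 9.70 and 9.46 in siGLP, 9.00, 8.68 and 8.90 in siG9a, and 8.85 and 8.90 in Control. Both siGLP arrays were above all others, by 0.70 over Control (SE 0.13; limma adjusted p = 0.197) and 0.71 over siG9a (SE 0.12; limma adjusted p = 0.0768). The kinase gene with the larger difference from Control was Pdk4 in siGLP and Pdk1 in siG9a. Mpc1, a subunit of the mitochondrial pyruvate carrier, stood at 0.28 in siGLP and 0.24 in siG9a (limma adjusted p = 0.4 and 0.334), and the insulin-responsive transporter gene Slc2a4 at 0.37 and 0.29, from a level below the median gene.

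Of 13 genes of glycogen and pentose phosphate metabolism, 2 were higher and 0 lower at an unadjusted p under 0.05 in each comparison with Control, where 4.51% of all genes were higher in siGLP and 5.95% in siG9a. Ugp2, which makes the UDP-glucose used for glycogen, stood at 0.30 in siGLP (SE 0.096; limma adjusted p = 0.434) and 0.37 in siG9a (SE 0.088; limma adjusted p = 0.217). Gbe1, the glycogen branching enzyme, stood at 0.45 in siGLP (SE 0.18; limma adjusted p = 0.55) and 0.34 in siG9a (SE 0.17; limma adjusted p = 0.535). Pgm2, a phosphopentomutase, stood at 0.20 in siG9a minus Control (SE 0.083; limma adjusted p = 0.472) and at -0.28 in siGLP minus siG9a (SE 0.083; limma adjusted p = 0.244).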

How the data were processed

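RNA from 7 C2C12 samples was measured with 1 single-colour Affymetrix whole transcript array each, from 100 ng of total RNA per the labels' protocols. The deposited table holds log2 values for 33649 probe sets, made by the authors with RMA and Partek per the submitters' processing notes. RMA corrects background, normalizes quantiles and summarises probes, which compresses dim signals. The log2 scale was read from the values, which run from 1.27 to 13.1. The sources used here give neither the authors' tests nor the array's genome build.

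The platform annotation gave 1 symbol to 23521 probe sets and several to 1814. Of those with 1 symbol, 23328 were matched to RefSeq gene numbers of GRCm38.p6, and the symbol was updated where it differed. The highest-mean probe set per gene left 22180 genes, with no filter. Limma 3.58.1 in R 4.3.3 (lmFit, eBayes) was fitted to all 7 arrays with 1 mean per group (4 residual degrees of freedom, 6.89 moderated), and p-values are two-sided with Benjamini-Hochberg adjustment over all genes at 0.05. The scripts were tested on simulated data. Per-array values are given for the 6 members with the smallest p in each comparison and for Hif1a, Slc2a1, Hk2, Pfkp, Pdk1, Ldha, Bnip3 and Vegfa, and of each further list up to 4 genes with the smallest p in a comparison with Control are candidates for naming. Bhlhe40 falls outside this rule and was chosen after its values were seen. The members and lists were chosen with earlier results of these data known. Alternatives left out single arrays or dim genes, renormalized the values, changed the variance model or the arrays fitted, averaged probe sets or added the replicate number as a block. The small number of arrays limits precision.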

Additional observations from a re-analysis of the deposited data

How the results depend on the processing

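Under 15 alternatives per comparison, members passed in 5 of 45 cases. The cases are not all separate. In siG9a minus Control, leaving out either siGLP array gives the same fit as using only the 2 groups compared. The same holds for leaving out either Control array in siGLP minus siG9a. The count of members that passed was 1 (Bnip3) in siG9a minus Control without genes below the median level and with trended, robust moderation. In siGLP minus siG9a it was 1 (Bnip3, limma adjusted p = 0.0498) without genes below the 30th percentile, and 3 (Bnip3, Ndrg1 and Pfkp) both without genes below the median level and with trended, robust moderation. Leaving out dim genes tests fewer genes and changes the variance that limma borrows; otherwise the cause was not tested. Leaving out any 1 siG9a array left the member count at 0 in each comparison. In these fits 0 of 22180 genes passed in siG9a minus Control and at most 1 in siGLP minus Control. A member count of 0 there could hardly have been otherwise and does not speak to the members. Leaving out a Control or siGLP array leaves 1 array in that group, so only differences are given. The median member difference in siGLP minus Control was -0.0379 without Control 1 and ran from -0.0379 to -0.0034 when 1 array was left out, and was -0.0305 with the mean over all probe sets of a gene. In siGLP minus siG9a it ran from -0.112 (without siGLP 2) to -0.0676. The sign turned in 15 values of the 14 genes with per-array values, whose differences there were near 0. With 1 array left out, Pfkl ran from -0.090 to 0.029 in siG9a minus Control, and in siGLP minus Control Slc2a1 ran from -0.10 to 0.090, Pdk1 from -0.20 to 0.049, Higd1a from -0.12 to 0.16, Hif1a from -0.064 to 0.023 and Ldha from -0.014 to 0.065. The settings that turned the sign were, in siG9a minus Control for Pfkl (0.029 without Control 2), in siGLP minus siG9a for Vegfa (0.021 without siG9a 1, 0.038 without siGLP 2), and in siGLP minus Control for Bnip3 (-0.041 without Control 1), Hif1a (0.006 without Control 1, 0.023 without siGLP 1, 0.0006 with quantile normalization), Slc2a1 (0.090 without Control 2, 0.086 without siGLP 1, 0.015 with cyclic loess), Pdk1 (0.049 without Control 2, 0.030 with the mean of probe sets), Higd1a (-0.010 without Control 2, -0.12 without siGLP 1) and Ldha (-0.014 without Control 2). With the replicate number as a block, no member passed in any comparison (smallest limma adjusted p = 0.347, 0.349 and 0.239) and the median differences were 0.058, -0.006 and -0.080. In the block fits against Control 0 of 22180 genes passed, so the member count there was fixed. The block takes up siG9a 3, so its differences equal by construction those without that array. The replicate numbers are not said to pair samples, and deviations of same-numbered arrays correlated at 0.005 to 0.17 across genes, all positive. With 2 arrays in each group, the siGLP with Control correlations are equal by construction (0.1025), so these values are not separate checks.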
